A study of Mus musculus with 9 samples.

Results

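Insulin signalling was followed through 9 genes in mouse liver: the receptor Insr, the adaptors Irs1 and Irs2, the kinase Akt2, the transcription factor Foxo1, the secreted IGF-binding proteins Igfbp1 and Igfbp2, and the glycogen-targeting subunits Ppp1r3b and Ppp1r3c. They were chosen by symbol, and all 9 were among the 55253 genes of the deposited table and the 14759 genes tested. Livers came from 9 male C57Bl/6J mice and were sequenced from the 3′ ends of mRNA. From the age of 10 weeks, 5 mice ate a Western diet (WD) and drank sweetened water holding 10% alcohol for 23 weeks, and 4 control mice ate chow and drank plain tap water. The diet, the alcohol and the sweetener cannot be told apart, and the labels used here state neither the hour of collection nor whether mice had fasted.

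Insulin binds its receptor on hepatocytes, which phosphorylates Irs1 and Irs2, and these adaptors recruit PI3-kinase and switch on Akt2, the main AKT kinase of liver metabolism. Akt2 phosphorylates Foxo1 and keeps it out of the nucleus, so transcripts that Foxo1 raises, such as Igfbp1, Irs2 and the gluconeogenic genes G6pc and Pck1, are low after a meal and high in fasting. Insulin also drives glycogen storage, for which subunits such as Ppp1r3b and Ppp1r3c carry protein phosphatase 1 to the glycogen particle, where it activates glycogen synthase. Much of this pathway works by phosphorylation, which transcript levels do not measure.

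Promoter sequences are shown for the member that differed between the groups (Ppp1r3c), the one that varied most between mice (Igfbp1), and both adaptors, whose promoters hold the same letters as Igfbp1. The sequences are RefSeq's for build GRCm38.p6, the last 150 bases before the start site, read 5′ to 3′ along the gene. Capitals mark CAAAACA (or TGTTTTG on the other strand), the core of the insulin response sequence of Igfbp1, and CACGTG, an E-box that reads the same on both strands.
Ppp1r3c (chr19:36736605-36736754, minus strand): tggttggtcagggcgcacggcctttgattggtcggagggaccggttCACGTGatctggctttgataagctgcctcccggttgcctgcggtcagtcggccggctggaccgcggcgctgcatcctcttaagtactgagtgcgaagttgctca
Igfbp1 (chr11:7197637-7197786, plus strand): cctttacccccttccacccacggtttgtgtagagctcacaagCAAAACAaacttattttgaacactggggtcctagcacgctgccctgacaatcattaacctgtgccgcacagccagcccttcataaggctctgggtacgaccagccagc
Irs1 (chr1:82291440-82291589, minus strand): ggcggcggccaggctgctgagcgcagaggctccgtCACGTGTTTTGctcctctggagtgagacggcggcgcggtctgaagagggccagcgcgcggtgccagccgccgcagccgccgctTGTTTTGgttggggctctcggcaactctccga
Irs2 (chr8:11008930-11009079, minus strand): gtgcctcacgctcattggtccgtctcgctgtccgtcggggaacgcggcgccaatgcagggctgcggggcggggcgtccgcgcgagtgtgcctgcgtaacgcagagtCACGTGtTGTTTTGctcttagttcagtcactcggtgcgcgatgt
In Irs1 the E-box at position -115 from the start site overlaps the first TGTTTTG, at position -111, and a second TGTTTTG lies at -32. In Irs2 the E-box at -44 is followed by TGTTTTG at -37, in Igfbp1 CAAAACA lies at -108, and in Ppp1r3c the E-box lies at -104. RefSeq start sites were matched for 7 of the 9 genes, with 11 start sites in all (Insr and Ppp1r3b were not matched). In the 250 bases before these 11 start sites, the insulin response core was found at 3, beside 5.56% of 32851 RefSeq start sites. The E-box was found at 4, the fourth being Igfbp2, beside 6.02%. The forkhead core GTAAACA, searched on both strands, was found at 0, beside 3.17%. These motifs were chosen after the promoters had been read. A match is a run of letters, not a measured binding site.

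The libraries held between 3635860 reads in WD+alcohol 1 and 6643645 in WD+alcohol 4, and each member had 49 to 1815 reads in each library. Values are read counts per library total after TMM scaling (CPM), and in 3′ libraries they do not depend on transcript length. WD+alcohol 1, with the fewest reads, lay furthest from the others on the first principal component (42.1, against 2.07 to 19.1 in the other WD+alcohol libraries and -22.1 to -16.7 in controls). All hepatocyte markers were present, and their sum was 31856 to 44741 CPM with WD+alcohol against 48573 to 71046 CPM in controls, without overlap. Alb was the largest part of that sum, at 14340 to 23410 against 26680 to 42090 CPM. Of the 10 markers, 3 were called lower (Alb, Apoa1 and Serpina1c), and the ranges of the others, Cyp2e1 and Hnf4a among them, overlapped. Macrophage markers summed to 536 to 879 CPM against 192 to 303 CPM (8 of 10 higher). Adipocyte markers summed to 50.1 to 172 CPM against 23.6 to 31.8 CPM, of which Cidea, Cfd, Lipe and Fabp4 were tested and 3 were higher. The adipocyte genes Lep, Adipoq, Plin1, Retn, Adig and Slc2a4 were at 0 or too low to test. Of 10 pancreatic markers, Cela1 alone was tested and it was lower, while Ins1, Ins2, Sst and Amy2a5 were at 0. The parts of these cell types in the results were not tested. Fewer cells of a type and less RNA per cell cannot be told apart in such bulk samples.

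Transcripts known from fibroblasts were abundant in every library of both groups. Col1a1 was at 1859 to 2217 CPM with WD+alcohol against 1924 to 2174 CPM in controls, and Acta2 at 904 to 1086 against 874 to 1059 CPM. Among genes looked up after those values were seen, Hmga2, a chromatin protein of embryonic and cultured cells, was at 199 to 236 against 190 to 239 CPM. Xist, the RNA of the inactive X chromosome of female cells, was at 92.9 to 109 against 97.9 to 132 CPM, although all mice are labelled male and the Y-linked Ddx3y was at 28.3 to 41.1 against 33.3 to 46.2 CPM. Of these 5 genes, 0 were called (adjusted p from 0.530 to 0.898, limma-trend), and the ranges of the groups overlapped for each. Of the 10 stellate cell and fibroblast markers, which include Col1a1 and Acta2, 1 was called higher and 0 lower. Dcn (133 to 198 against 79.6 to 108 CPM) and Rgs5 (14.4 to 29.2 against 6.43 to 12.9 CPM) lay higher with WD+alcohol without overlap. The ranges of the other markers of that list overlapped. The part of such RNA in the levels of the insulin signalling genes was not tested.

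Of the 9 genes, 1 was lower with WD+alcohol at an adjusted p under 0.05 (limma-trend on log2(CPM + 1), adjusted over all 14759 genes) and 0 were higher, beside 2.29% of all tested genes called and 0.678% called lower. The one called was Ppp1r3c. With edgeR and with DESeq2 on reads recovered from the CPM values, 1 of the 9 was called as well, beside 2.13% and 3.69% of all tested genes. At an unadjusted p under 0.05 there were 2 of the 9 (Ppp1r3c and Igfbp2), beside 12.2% of all tested genes. The median log2 fold change was -0.10 over the 9 genes and -8e-04 over all tested genes, and 7 of the 9 were negative. The groups did not overlap for 1 of 9 genes, beside 5.34% of all tested genes (3.34% higher and 2% lower with WD+alcohol).

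**Figure D1:**
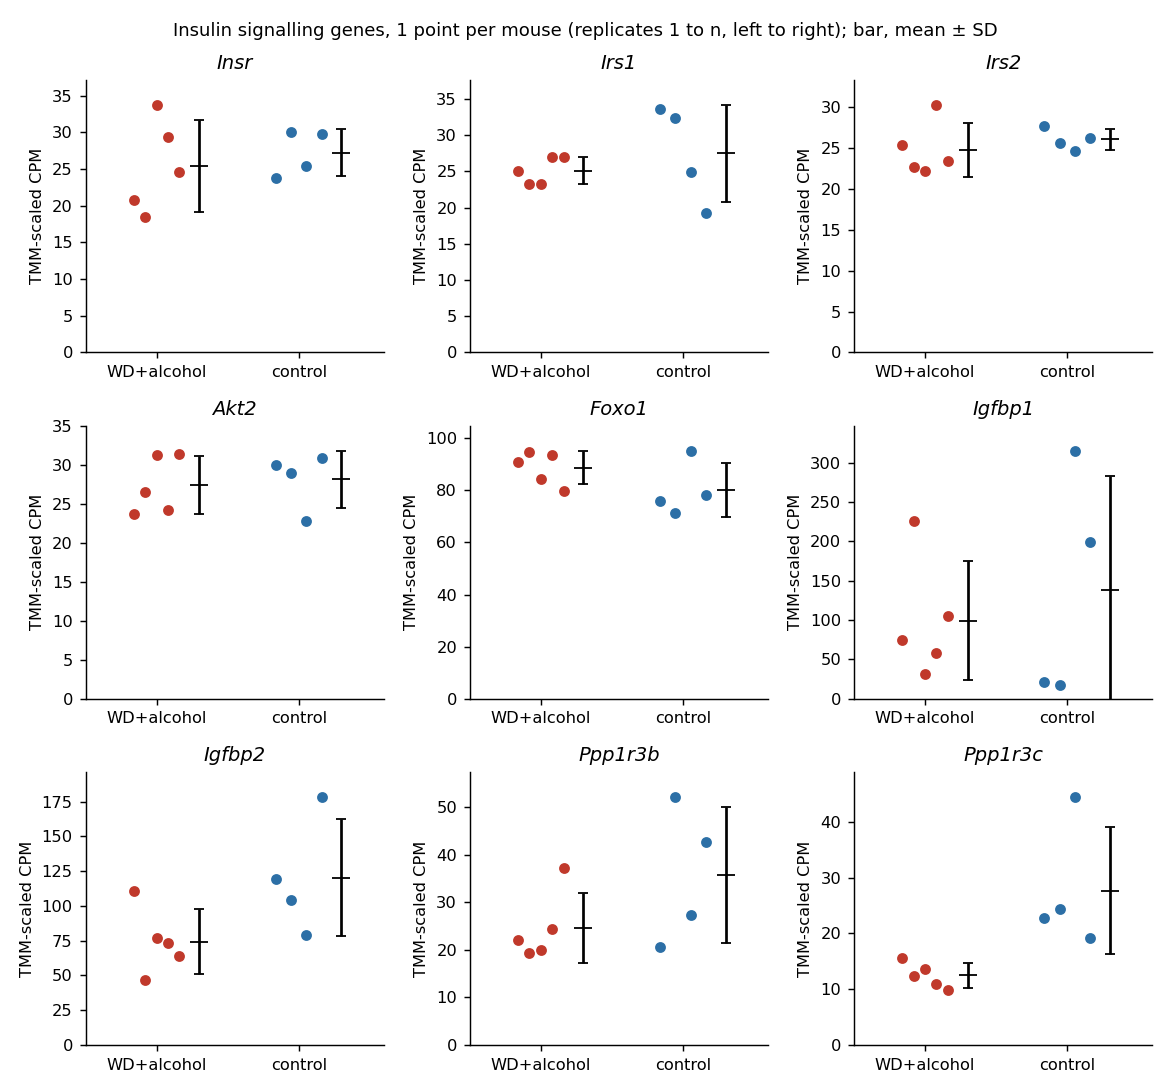
TMM-scaled CPM of the 9 insulin signalling genes in each liver, 1 point per mouse, with WD+alcohol (red, n = 5) left of control (blue, n = 4) and the mean ± SD beside each group; the axis of each panel starts at 0, where the control bar of Igfbp1 is cut off. Ppp1r3c is the one panel without overlap (9.81 to 15.6 CPM against 19.1 to 44.5 CPM), and Igfbp1 has the widest scatter.

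**Figure D2:**
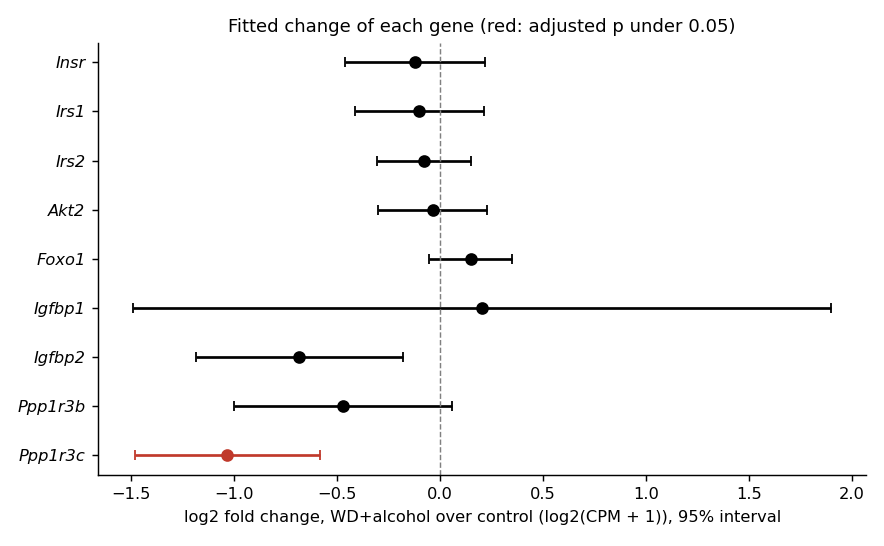
Log2 fold change of each gene, WD+alcohol over control, on the log2(CPM + 1) scale, with its 95% interval from limma-trend (n = 5 and 4); the dashed line is no change. Ppp1r3c, in red, lies at -1.03, and the interval of Igfbp1 runs from -1.49 to 1.90.

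At the head of the pathway, neither the receptor nor its adaptors were called. Insr had 20.8, 18.5, 33.8, 29.4 and 24.6 CPM in WD+alcohol livers 1 to 5, against 23.7, 30.04, 25.4 and 29.7 CPM in control livers 1 to 4. The control values lay inside the range of the WD+alcohol livers, and the log2 fold change was -0.12 (95% interval -0.46 to 0.22; adjusted p = 0.835, limma-trend). That interval corresponds to 0.726 to 1.16 times the control level.

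Irs1 had 25.1, 23.2, 23.3, 27.0 and 27.0 CPM with WD+alcohol, against 33.6, 32.4, 24.9 and 19.3 CPM in controls. Here the WD+alcohol livers lay inside the range of the controls, and the coefficient of variation was 7.46% with WD+alcohol and 24.3% in controls. Irs2 had 25.3, 22.6, 22.1, 30.3 and 23.4 CPM with WD+alcohol, against 27.7, 25.6, 24.7 and 26.1 CPM in controls. The Irs2 controls lay inside the range of the WD+alcohol livers, and the coefficient of variation was 13.4% with WD+alcohol and 4.82% in controls.

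The log2 fold change was -0.10 (95% interval -0.41 to 0.21) for Irs1 and -0.08 (-0.31 to 0.15) for Irs2 (adjusted p = 0.858 and 0.848, limma-trend). The interval for Irs2 corresponds to 0.808 to 1.11 times the control level. The ratio of Irs2 to Irs1 had a median of 0.974 in WD+alcohol livers (0.867 to 1.12) and 0.908 in controls (0.792 to 1.35). In GENCODE M21, Gm9747 on the opposite strand covers 2822 of the last 3000 bases of Irs1, where 3′ reads fall. Gm9747 is listed at 0 in all libraries, and the strand setting of the counting is not known from the labels, which leaves the level of Irs1 uncertain.

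Akt2 ran from 23.7 to 31.4 CPM with WD+alcohol (median 26.6) and from 22.8 to 30.9 CPM in controls (median 29.5). The ranges were nearly the same, and the log2 fold change was -0.04 (95% interval -0.30 to 0.23; adjusted p = 0.952, limma-trend). Its sign turned (0.02) when every library was rescaled to an equal total. Foxo1 had 91.1, 94.6, 84.5, 93.8 and 79.7 CPM with WD+alcohol, against 76.1, 71.2, 95.2 and 78.3 CPM in controls. For Foxo1, 3 of the 4 controls lay below all WD+alcohol livers, while control 3 was the highest of the 9. The log2 fold change of Foxo1 was 0.15 (95% interval -0.05 to 0.35; adjusted p = 0.580, limma-trend).

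Igfbp1 is a plasma protein that binds IGF1 and whose liver transcript insulin represses within hours. It had 74.1, 226, 31.3, 58.6 and 105 CPM in WD+alcohol livers 1 to 5, against 20.6, 16.8, 315 and 199 CPM in control livers 1 to 4. Controls 1 and 2 lay below all WD+alcohol livers, control 3 lay above all of them, and control 4 lay below WD+alcohol 2 alone. The highest value was 7.21 times the lowest with WD+alcohol and 18.8 times the lowest among controls. The log2 fold change was 0.21 with a 95% interval of -1.49 to 1.90 (adjusted p = 0.957, limma-trend), which spans from 0.356 to 3.73 times the control level. Its sign depended on the scale: on recovered reads it was -0.48 with edgeR and -0.48 with DESeq2. Between mice of 1 group, Igfbp1 had a standard deviation of 1.61 on the log2 scale, against a median of 0.19 over the 11030 genes that averaged 5 CPM or more, of which 31 varied more (0.281%).

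**Figure D3:**
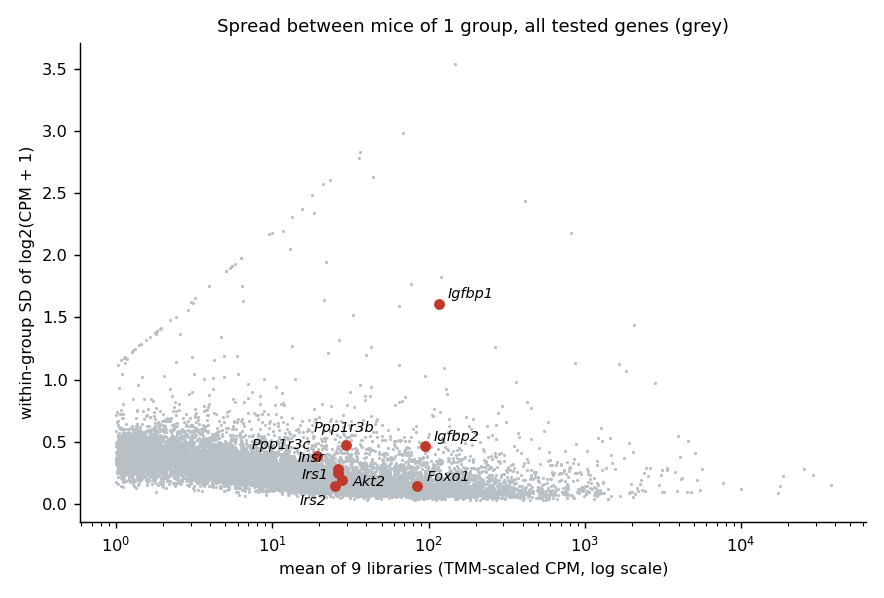
Standard deviation of log2(CPM + 1) between mice of 1 group, pooled over both groups, against the mean level in CPM (log scale) for the 14759 tested genes (grey) and the 9 insulin signalling genes (red). Igfbp1 lies at 1.61, far above genes of like level, while Irs2 and Foxo1 lie at 0.14.

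Some other transcripts shared part of the order of Igfbp1 across the livers. Tat, a tyrosine aminotransferase induced in fasting and by glucocorticoids, was taken from the list of fasting targets after its values were seen and had 127, 389, 137, 236 and 138 CPM with WD+alcohol, against 195, 227, 720 and 501 CPM in controls. The 3 livers highest in Tat (control 3, control 4 and WD+alcohol 2) were the 3 highest in Igfbp1, but the 3 lowest in Tat (WD+alcohol 1, 3 and 5) were not the 3 lowest in Igfbp1. Other fasting targets had other orders. Pck1 was highest in controls 4 and 3 but lowest of all livers in WD+alcohol 2 (747 CPM). G6pc was at 72.1 CPM in control 2 and 42.2 CPM in control 3, and Irs2 at 25.6 and 24.7 CPM. Clock genes were looked up after the values of Igfbp1 were seen. Dbp, a clock output gene with a strong daily rhythm in mouse liver, had 48.0, 25.7, 112, 72.7 and 78.1 CPM with WD+alcohol, against 93.1, 114, 25.7 and 70.9 CPM in controls.

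The 3 livers lowest in Igfbp1 (control 2, control 1 and WD+alcohol 3) were the 3 highest in Dbp, and the highest pair in Igfbp1 was the lowest pair in Dbp. Nr1d1, the clock repressor REV-ERB alpha, was at 7.95 CPM in WD+alcohol 2 and 10.1 CPM in control 3, against 49.2 CPM in control 2. Like Dbp and Nr1d1, the clock genes Tef, Per3 and Nr1d2 were lowest in WD+alcohol 2 and control 3. Per2 was also lowest in control 3 (9.73 CPM), but its next lowest value was in WD+alcohol 1 (13.5 CPM), below WD+alcohol 2 (17.7 CPM). Per1, Cry1, Arntl, Clock and Ciart had their lowest values in other livers. Ciart was at 3.36 CPM in control 2 and 6.43 CPM in control 3, and Cry1 at 10.7 and 10.8 CPM. Of 11 clock genes, 0 differed between the groups at an adjusted p under 0.05 (limma-trend), 0 at an unadjusted p under 0.05, 0 with edgeR and 0 with DESeq2. Over all 14759 genes, the deviations of WD+alcohol 2 from its group mean correlated at 0.29 with those of control 3, and the deviations of WD+alcohol 3 at 0.22 with those of control 2. These were picked as the highest of any pair across the groups. WD+alcohol 2 correlated at 0.05 with control 4 and WD+alcohol 3 at 0.05 with control 1. The lowest values were -0.31 for WD+alcohol 2 with control 2 and -0.21 for WD+alcohol 3 with control 3. All are correlations across genes, which are not independent replicates. The part of collection time or feeding state in the spread of Igfbp1 was not tested.

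**Figure D4:**
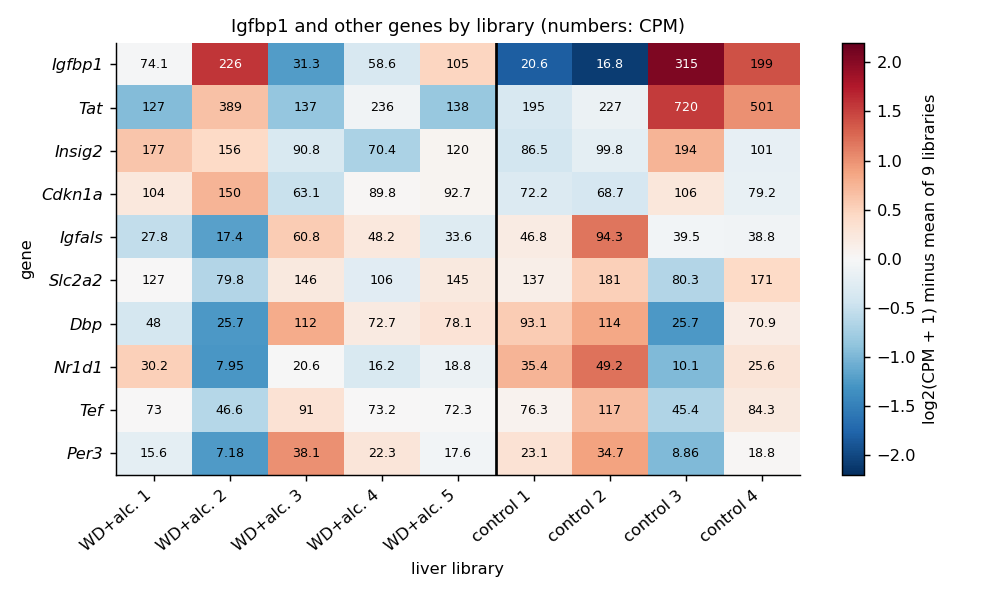
Igfbp1, 5 genes of the pathway lists and 4 clock genes in each liver, WD+alcohol left of the line and control right of it; colour is log2(CPM + 1) minus the gene's mean over the 9 libraries, and the number is CPM. The genes beside Igfbp1 were chosen after their values were seen; WD+alcohol 2 and control 3 (226 and 315 CPM of Igfbp1) have the lowest Dbp, at 25.7 CPM each.

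Igfbp2 encodes a second IGF-binding protein of liver, which leptin induces in mice. It had 111, 46.6, 76.6, 73.5 and 63.9 CPM in WD+alcohol livers 1 to 5, against 119, 104, 79.2 and 178 CPM in control livers 1 to 4. Of the WD+alcohol livers, 4 lay below all controls, and WD+alcohol 1 lay above 2 of them. Means were 74.3 ± 23.5 CPM (SD, n = 5) with WD+alcohol and 120.3 ± 42.1 CPM (SD, n = 4) in controls. The log2 fold change was -0.68 (95% interval -1.18 to -0.18), or 0.624 times the control level, and it was not called (adjusted p = 0.199, limma-trend; exact permutation p = 0.0635). Without WD+alcohol 1, the library that stood apart, it was -0.84 (adjusted p = 0.0746, limma-trend). Leaving out each library gave -0.86 without control 3 to -0.47 without control 4 (adjusted p = 0.0943 and 0.443, limma-trend). The order of livers was not that of Igfbp1: the highest in Igfbp2 was control 4 and the lowest WD+alcohol 2. Igfbp1 exceeded Igfbp2 in 2 of 5 WD+alcohol livers (ratio 4.85 and 1.65) and in 2 of 4 controls (3.98 and 1.12).

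Ppp1r3c, also known as protein targeting to glycogen, had 15.6, 12.4, 13.7, 10.9 and 9.81 CPM in WD+alcohol livers 1 to 5, against 22.7, 24.4, 44.5 and 19.1 CPM in control livers 1 to 4. All 5 WD+alcohol livers lay below the lowest control. Means were 12.5 ± 2.29 CPM (SD, n = 5) with WD+alcohol and 27.7 ± 11.4 CPM (SD, n = 4) in controls. The log2 fold change was -1.03 (95% interval -1.48 to -0.58; adjusted p = 0.0181, limma-trend), a level of 0.489 times that of controls. A two-sided exact permutation test gave p = 0.00794, the smallest it can give with 5 against 4 livers. Ppp1r3c was still called without control 3, its highest value (log2 fold change -0.79, adjusted p = 0.0248, limma-trend). Without WD+alcohol 5 it was not called (-0.96, adjusted p = 0.0573, limma-trend). The hepatocyte marker sum was lower in the same livers, as given above, and its part in the fall of Ppp1r3c was not tested. Skeletal muscle, which also carries Ppp1r3c, was checked by its markers, which summed to 11.1 to 15.4 CPM with WD+alcohol against 11.6 to 17.6 CPM in controls, with Ckm, Myh1 and Mb at 0.

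Ppp1r3b, the subunit known as GL and abundant in liver, had 22.1, 19.4, 19.9, 24.4 and 37.2 CPM in WD+alcohol livers 1 to 5, against 20.6, 52.1, 27.3 and 42.6 CPM in control livers 1 to 4. The groups overlapped: control 1 lay among the WD+alcohol livers, and WD+alcohol 5 among the controls. Ppp1r3b was not called, with a log2 fold change of -0.47 (SE 0.24; adjusted p = 0.473, limma-trend; exact permutation p = 0.175). It was -0.70 without control 1 and -0.26 without control 2 (adjusted p = 0.196 and 0.729, limma-trend). Its 95% interval ran from 0.501 to 1.04 times the control level, against 0.358 to 0.668 times for Ppp1r3c, and these intervals overlap. Whether the change differed between the paralogs was not tested. The ratio of Ppp1r3c to Ppp1r3b ran from 0.263 to 0.707 in WD+alcohol livers and from 0.449 to 1.63 in controls, and overlapped.

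By the rule of smallest distance over the 9 libraries, the genes most like Ppp1r3c among 11029 candidates averaging 5 CPM or more were Slc25a22, Fam214a and Cyp51. Slc25a22 carries glutamate into mitochondria and Cyp51 is a sterol demethylase of cholesterol synthesis. Their root mean square distances from Ppp1r3c, in log2(CPM + 1) after each gene's own mean was taken off, were 0.25, 0.31 and 0.32. Slc25a22 averaged 68.2 CPM with WD+alcohol and 110 CPM in controls and was not called (adjusted p = 0.116, limma-trend). Fam214a averaged 32.2 against 51.9 CPM, and Cyp51 60.7 against 120 CPM, and both were called lower (adjusted p = 0.0430 and 4.22e-04, limma-trend). The distance kept the difference between the groups, so the rule itself favours genes that are lower with WD+alcohol. The direction of these genes is therefore not a separate result.

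The rest of the pathway was followed through 7 lists, whose counts stand beside 2.29% of all tested genes called and 12.2% at an unadjusted p under 0.05. Of 27 genes from the insulin receptor to AKT, 0 were called (median log2 fold change -0.02; 2 at an unadjusted p under 0.05, 0 with edgeR and 1 with DESeq2). Sos1, an exchange factor for RAS, averaged 46.5 ± 4.40 CPM with WD+alcohol and 53.9 ± 3.07 CPM in controls (adjusted p = 0.322, limma-trend).

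Of 24 genes that damp the insulin signal, 0 were called (median 0.004; 2 at an unadjusted p under 0.05, 0 with edgeR and with DESeq2). Ceacam1, which promotes insulin clearance by the liver, averaged 16.9 ± 3.13 CPM with WD+alcohol and 24.9 ± 5.98 CPM in controls, and Grb14, an inhibitor of the receptor kinase, 12.0 ± 3.08 against 15.9 ± 4.83 CPM (adjusted p = 0.186 and 0.517, limma-trend). Among 14 AKT substrates and growth genes tested, 0 were called (median 0.009; 0 at an unadjusted p under 0.05, 0 with edgeR and with DESeq2). The forkhead factor Foxo4 averaged 12.0 ± 2.53 against 15.0 ± 3.59 CPM and Tsc1, of the complex that restrains mTORC1, 15.7 ± 3.06 against 18.4 ± 2.16 CPM (adjusted p = 0.580 and 0.607, limma-trend).

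Among targets further down, genes changed in both directions. Of 23 Foxo1 and fasting targets tested, 1 rose and 1 fell (median -0.07; 6 at an unadjusted p under 0.05). In this list edgeR also called 1 higher and 1 lower, and DESeq2 1 higher and 2 lower. Pck1, the gluconeogenic carboxykinase, fell to 935 ± 115 CPM with WD+alcohol, against 1914 ± 544 CPM in controls (0.499 times; adjusted p = 0.00324, limma-trend), and Cpt1a, the gate of mitochondrial fatty acid oxidation, averaged 186 ± 17.1 CPM with WD+alcohol against 124 ± 23.4 CPM in controls, a log2 fold change of 0.60 (adjusted p = 0.0136, limma-trend). G6pc, glucose-6-phosphatase, was chosen after its values were seen. It had 17.8, 26.7, 21.4, 41.7 and 33.0 CPM with WD+alcohol, against 42.5, 72.1, 42.2 and 118 CPM in controls. The groups did not overlap, and the adjusted p was 0.0526 (log2 fold change -1.19 ± 0.29, SE; limma-trend). Pck1 and G6pc thus had no overlap between the groups while Igfbp1, another Foxo1 target, did overlap, and the difference between these genes' changes was not tested.

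Of 14 transcripts that insulin raises through SREBP1c and related factors, 1 rose and 1 fell (median -0.24; 7 at an unadjusted p under 0.05). In this list edgeR also called 1 higher and 1 lower, and DESeq2 1 higher and 4 lower. Scd1, the stearoyl-CoA desaturase, had a log2 fold change of 1.74 (adjusted p = 7.04e-04, limma-trend). Insig1, which holds SREBP proteins in the endoplasmic reticulum, had 11.6, 8.86, 16.9, 13.3 and 11.2 CPM with WD+alcohol, against 28.7, 44.3, 27.8 and 19.9 CPM in controls, without overlap (log2 fold change -1.19 ± 0.21, SE; adjusted p = 0.00714, limma-trend).

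**Figure D5:**
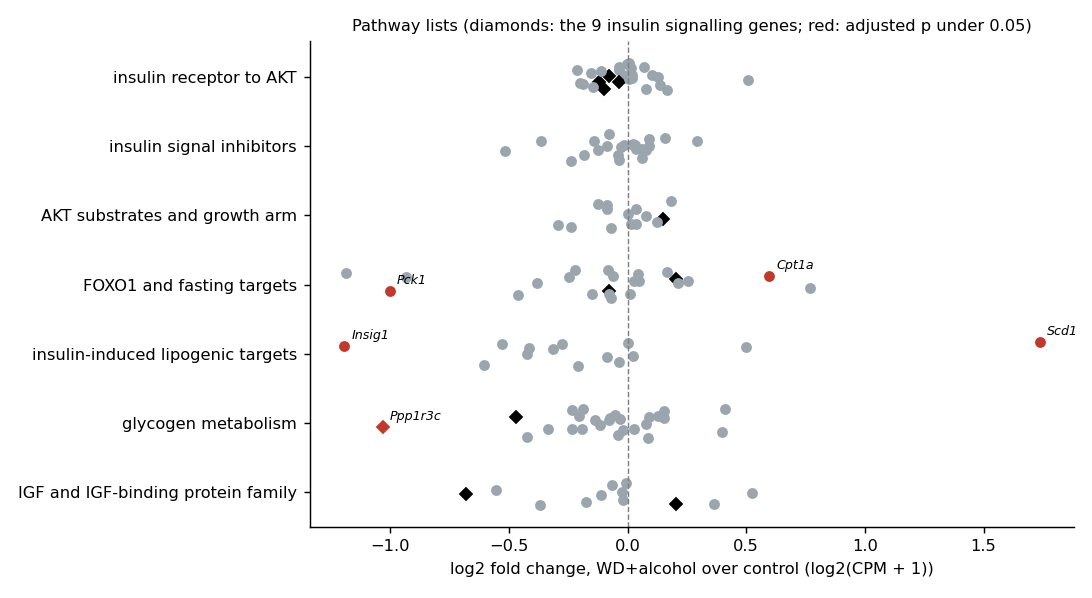
Log2 fold change, WD+alcohol over control, of each tested gene in 7 pathway lists (points are spread vertically for legibility); diamonds are the 9 insulin signalling genes and red marks an adjusted p under 0.05. The 3 lists at the head of the pathway have no red point, and the called genes are Pck1, Cpt1a, Insig1, Scd1 and Ppp1r3c.

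Of 26 glycogen genes tested, Ppp1r3c alone was called by limma-trend (1 lower, 0 higher; median -0.06; 2 at an unadjusted p under 0.05), and 1 gene was called with edgeR and with DESeq2. The glycogen branching enzyme Gbe1 averaged 85.1 ± 19.5 CPM with WD+alcohol and 62.6 ± 4.12 CPM in controls, and the liver phosphorylase Pygl 124 ± 26.3 against 157 ± 35.7 CPM, without being called (adjusted p = 0.204 and 0.460, limma-trend). Gbe1 was called higher without WD+alcohol 4 (adjusted p = 0.0397, limma-trend). The liver glycogen synthase Gys2, the enzyme on which the subunits act, was also chosen after its values were seen and averaged 49.3 ± 9.18 against 53.3 ± 9.75 CPM (adjusted p = 0.831, limma-trend).

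In the family of IGFs and their binding proteins, 0 of 12 tested genes were called (median -0.04; 4 at an unadjusted p under 0.05, 0 with edgeR and with DESeq2). Igfals, which holds IGF1 in a large plasma complex, averaged 37.6 ± 17.1 CPM with WD+alcohol and 54.9 ± 26.6 CPM in controls, and Igfbp3, a partner in that complex, 9.23 ± 1.66 against 6.37 ± 2.55 CPM (adjusted p = 0.538 and 0.340, limma-trend). The 9 genes described above are counted in all lists but the inhibitor and lipogenic ones, and no list was tested against other genes.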

How the data were processed

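Liver RNA of 5 WD+alcohol and 4 control mice was sequenced from libraries made with the Collibri kit for 3′ mRNA ends, per the labels' protocols. Per the submitters' processing notes, Trim Galore 0.6.0, cutadapt 1.18, STAR, HTSeq 0.11.0, edgeR 3.28.1 and R 3.6.3 were used with build GRCm39; strand and multimapping settings are not given in the sources used here. The deposited values are a signal, gene counts scaled by the authors to CPM with TMM factors. All positive values (100%, relative tolerance 1e-06) were whole multiples of their column's smallest value, so reads were recovered for the count tests. Columns were tied to mice by library name. The series' design text gives as many mice as there are libraries in each group, and p-values measure the spread between these samples. No 2 libraries agreed within sampling noise.

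Log2(CPM + 1) was tested with limma-trend (limma 3.58.1, R 4.3.3) for genes averaging 1 CPM or more, two-sided, with Benjamini-Hochberg adjustment at 0.05; fold changes of low genes are understated on this scale. Alternatives were pseudocounts of 0.25 and 5, other filters and scalings, robust fitting, array weights, a replicate block, leaving out each library, edgeR 4.0.16 (quasi-likelihood; 315 genes called) and DESeq2 1.42.0 on recovered reads. The fit was tested on simulated data. Members and gene lists were chosen with earlier results of these data known. Named genes were all members and, per list, up to 4 called genes with the smallest p or else the 2 non-members with the largest change at 5 CPM or more. A gene that this rule names is not reported here. Figures used matplotlib 3.10.9. Promoters came from RefSeq for GRCm38.p6, another build than the counts, so gene coordinates are not given. A gene at 0 may have had up to 3 reads, or 0.455 to 0.809 CPM depending on the library, by counting error alone.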

Additional observations from a re-analysis of the deposited data

Results flagged for a closer look

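Within a group, 3 values lay further from the others than Dixon's 95% limit, among 46 groups of 4 or 5 livers examined, where chance flags about 1 in 20. Ppp1r3b was 37.2 CPM in WD+alcohol 5, against 19.4 to 24.4 CPM in the other WD+alcohol livers. Tsc1 was 10.3 CPM in WD+alcohol 3, against 16.3 to 17.9 CPM in the others of its group. Igfals was 94.3 CPM in control 2, against 38.8 to 46.8 CPM in the other controls.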

How the results depend on the processing

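Of 21 alternatives, the call of Ppp1r3c held in 19, with log2 fold changes from -1.18 to -0.79 over all 21. It was lost without WD+alcohol 5 and with the replicate number as a block (-0.96, adjusted p = 0.0735), so that 0 of the 9 genes were called; leaving out each library gave 0 to 1. The other 8 genes were called under none. Nothing in the labels says that the replicate numbers pair the livers. Same-numbered deviations from the group means correlated at -0.31 to -0.01, none the best match, but such correlations in groups this small cannot exclude a pairing. WD+alcohol 5 has no partner, so the block sets it aside. With the block 112 genes were called in all, 0 on the glycogen list and 1 on the lipogenic list (2 without it), and Cpt1a (0.0730) and Insig1 (0.108) lost their calls; the fasting list had 2 lower and 0 higher. With DESeq2 545 genes were called, 5 of them lipogenic. Leaving out each library gave 201 genes (without WD+alcohol 5) to 387 genes in all, 0 to 1 on the receptor-to-AKT list and 0 to 1 on the inhibitor list (both 1 without WD+alcohol 2), and 0 (without WD+alcohol 5) to 2 (without WD+alcohol 4) on the glycogen list. The receptor-to-AKT list had 1 call with DESeq2, with robust limma-trend and after rescaling every library to an equal total. Signs turned for genes near 0: Akt2 to 0.0179 after that rescaling and from -0.13 to 0.013 on leaving out a library, Irs1 from -0.25 to 0.0045 on leaving out a library, and Igfbp1 to -0.48 with edgeR and -0.48 with DESeq2, and from -0.45 to 0.93 on leaving out a library. The causes were not tested.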
